A study of Homo sapiens with 6 samples.

Results

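The UGT2B genes encode enzymes of the endoplasmic reticulum that attach glucuronic acid to steroids, fatty acids and drugs, and UGDH makes the sugar donor that they use. The measurements covered UGT2B4, UGT2B7, UGT2B10, UGT2B11, UGT2B15, UGT2B17, UGT2B28 and UGDH. Every array probe annotated to 1 of these 8 genes was taken and kept on its own, which gave 16 of the 48802 probes in the deposited table. LNCaP is a human prostate cancer line that depends on androgens and derives from a metastatic lymph node. The cells had been grown in RPMI with fetal bovine serum and transfected with a lipid reagent. Total RNA was profiled on Illumina Human-6 v3 beadchips. The label miR-331-3p marks 3 arrays and names cells that received the precursor of that miRNA. The label miR-NC marks the remaining 3 and names cells that received a negative control precursor. Each precursor was used at 30 nM, and harvest followed after 24 h. Within a label the arrays carry the letters A, B and C. Whether each label names the precursor that its cells received was not tested, and a reason for doubt is given with the signals below. All 6 arrays shared the cell line, the transfection reagent and the dose. The labels do not say whether the letters mark separate cultures, so p-values measure only the spread between these arrays. In a bulk RNA sample, fewer cells that express a gene and less RNA per cell cannot be told apart.

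Glucuronidation is a main way in which prostate cells inactivate androgens, since the glucuronide no longer binds the androgen receptor and is exported. UGT2B15 and UGT2B17 are the enzymes best known for conjugating dihydrotestosterone and its reduced metabolites in prostate, and UGT2B17 also takes testosterone. The genes lie in 1 cluster and resemble each other closely in sequence, so a probe for one may capture RNA of another.

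The miRNA that was transfected is shown with its seed, the bases 2 to 8 that pair with targets, in capitals. The sequence is that of RefSeq, at chr12:95308480-95308500 on the + strand of GRCh38.p14, with a length of 21 bases.
hsa-miR-331-3p: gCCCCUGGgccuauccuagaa
Transcript sequences were not used here, so sites that pair with this seed in the UGT2B messages were not analysed.

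Promoters of 5 of the 8 genes were found in the RefSeq table of GRCh38.p14, each running from 250 bases before to 50 bases after the start of the gene. UGT2B17, UGT2B28 and UGT2B4 are named only. The promoters are printed for UGT2B15, UGT2B7 and UGT2B11, each of which had at least 1 called probe, and for UGDH as the member outside the family. Capitals mark the words of at least 9 letters that the 4 UGT2B promoters found (these and UGT2B10) share, read on the strand of the gene.
UGT2B15 promoter (chr4:68670603-68670902, - strand): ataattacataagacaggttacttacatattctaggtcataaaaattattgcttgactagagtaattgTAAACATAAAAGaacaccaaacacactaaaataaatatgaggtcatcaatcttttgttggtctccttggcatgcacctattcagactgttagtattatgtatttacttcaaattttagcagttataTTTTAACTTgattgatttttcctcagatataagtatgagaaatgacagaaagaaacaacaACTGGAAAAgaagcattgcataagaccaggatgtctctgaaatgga
UGT2B7 promoter (chr4:69096224-69096523, + strand): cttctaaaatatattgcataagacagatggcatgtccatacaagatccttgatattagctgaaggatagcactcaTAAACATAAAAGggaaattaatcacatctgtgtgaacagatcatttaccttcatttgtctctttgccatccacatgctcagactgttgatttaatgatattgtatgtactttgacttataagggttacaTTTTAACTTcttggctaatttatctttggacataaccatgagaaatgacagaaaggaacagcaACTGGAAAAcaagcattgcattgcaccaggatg
UGT2B11 promoter (chr4:69214699-69214998, - strand): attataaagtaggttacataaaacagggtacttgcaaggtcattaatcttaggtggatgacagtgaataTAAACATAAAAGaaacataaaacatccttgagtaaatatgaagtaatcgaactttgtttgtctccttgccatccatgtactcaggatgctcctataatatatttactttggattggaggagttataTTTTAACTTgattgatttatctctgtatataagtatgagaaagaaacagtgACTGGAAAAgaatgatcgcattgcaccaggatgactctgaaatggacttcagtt
UGDH promoter (chr4:39527390-39527689, - strand): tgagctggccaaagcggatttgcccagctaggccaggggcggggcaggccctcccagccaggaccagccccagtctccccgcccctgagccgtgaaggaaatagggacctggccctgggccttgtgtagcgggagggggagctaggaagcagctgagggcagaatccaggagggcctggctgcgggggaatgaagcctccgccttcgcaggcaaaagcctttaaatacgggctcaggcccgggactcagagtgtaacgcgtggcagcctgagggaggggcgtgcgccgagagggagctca
The word TAAACATAAAAG stood in all 4 UGT2B promoters, from 175 to 182 bases before the start. It stood in 6 of 35116 promoters of the same length on either strand (0.0171%), and the 4 are among the promoters searched. The word TTTTAACTT stood in all 4 from 46 to 56 bases before the start and in 0.493% of all promoters, and ACTGGAAAA, near the start, in 0.473%. These words were picked because the 4 promoters share them, and they are a description of related sequences. UGT2B10 and UGT2B11 were identical at 90.1% of aligned positions, UGT2B11 and UGT2B15 at 70.6% and UGT2B7 and UGT2B15 at 65.4%. For comparison, the UGDH promoter was identical to the 4 UGT2B promoters at 42.5% to 45.6% of aligned positions. The GC content was 30.3% in UGT2B15, 35.0% in UGT2B7 and 33.0% in UGT2B11, against 66.7% in UGDH. The forkhead motif TNTTTAC, searched on both strands, was found in UGT2B10, UGT2B11 and UGT2B15, that is 3 of 4, and in 10.8% of all promoters, and 1 of its matches in UGT2B15 overlaps the longest shared word. The half-site AGAACA of the androgen receptor was found in UGT2B15 only, 1 of 4, and in 14.8% of all promoters.

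The values deposited by the authors are log2 signals, background corrected, variance stabilized and quantile normalized, which ran from 6.52 to 13.94 with the same median, 6.87, on every array. Testing with limma was limited to probes whose 6 values averaged 7 or more, and an adjusted p under 0.05 (Benjamini-Hochberg over 16752 probes) counted as a change. Signals of different probes are not compared with each other. The groups are called by their labels throughout because the direction under these labels is opposite to the one the study describes. Under the labels, the miR-331-3p arrays were 4.02-fold, 2.14-fold and 1.43-fold higher at the RRBP1 probes ILMN_2360784, ILMN_1803810 and ILMN_2268381, and 2.16-fold higher at ERBB2. If the labels had been exchanged, every direction given here would turn. UGT2B15, UGT2B17 and UGT2B7 are also among the genes that the study listed from these same samples, so their direction is not independent evidence.

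Of the 16 probes, 11 passed the minimum signal, for 7 of the 8 genes, and 7 of these, for UGT2B7, UGT2B11, UGT2B15, UGT2B17 and UGT2B28, passed limma's test with a higher signal under the miR-331-3p label. Over all probes tested, 4.30% were called higher and 3.66% lower. No member probe was called lower by limma or by the methods' t-test, which called 49 of all 16752 probes lower. None was lower at an unadjusted p under 0.05 with either, a rule whose lower share over all probes was not counted. Shares as low as those of the adjusted calls leave little room for a lower call among 11 probes. The absence is therefore not read as a result about the family. The differences of the 11 tested probes were all above 0, from 0.14 to 0.77 on the log2 scale, while the median of all probes tested was -0.0028. All 3 arrays labelled miR-331-3p lay above all 3 labelled miR-NC at 9 of the 11 probes, against 13.4% of all probes tested. The probes share the arrays and may share target RNA, so they are not 11 separate observations. The exact permutation test, two-sided, gives each of the 9 its smallest possible p, 0.1, and cannot reach 0.05 with 3 arrays against 3.

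**Figure D1:**
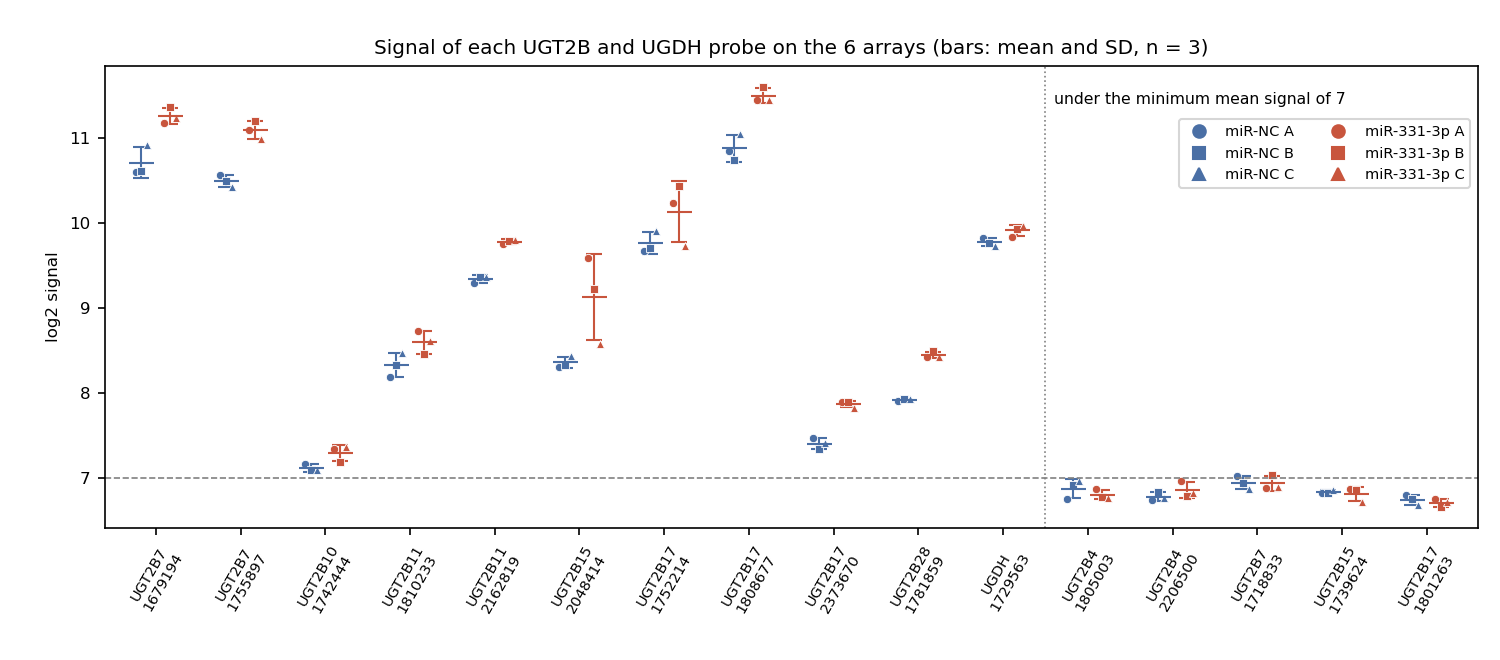
Log2 signal (vertical axis) of each of the 16 probes (horizontal axis) on the 3 arrays labelled miR-NC (blue) and the 3 labelled miR-331-3p (red), with symbols for the letters and bars for the mean and SD, n = 3. The dashed line is the minimum of 7, and the 5 probes on the right lie under it with the groups mixed, while at 9 of the 11 on the left the red points lie above all the blue ones.

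Among the enzymes known for conjugating androgens, UGT2B17 was read by 4 probes. The probe ILMN_1808677 gave log2 signals of 10.85, 10.74 and 11.05 in miR-NC A, B and C, and of 11.45, 11.60 and 11.45 in miR-331-3p A, B and C. The groups did not overlap, and the means were 10.88 ± 0.157 and 11.50 ± 0.086 (SD, n = 3), a difference of 0.62 (95% interval 0.42 to 0.82, 1.54-fold, adjusted p = 0.00205, limma). The second probe of UGT2B17, ILMN_2373670, read 7.47, 7.34 and 7.41 in the arrays labelled miR-NC and 7.89, 7.90 and 7.83 in those labelled miR-331-3p. It was higher by 0.47 (95% interval 0.31 to 0.62, 1.38-fold, adjusted p = 0.00288, limma), with narrow groups that lay 0.36 apart. The third, ILMN_1752214, read 9.67, 9.71 and 9.91 against 10.24, 10.43 and 9.73, so that miR-331-3p C fell among the arrays labelled miR-NC. Its difference of 0.37 (95% interval 0.04 to 0.70) did not pass the test (adjusted p = 0.168, limma). Without miR-331-3p C it was 0.57 with an adjusted p of 0.00187, and without each of the other arrays it lay between 0.22 and 0.44 and was not called. The fourth, ILMN_1801263, was under the minimum, with a mean of 6.73 and a difference of -0.03.

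UGT2B15, the close neighbour of UGT2B17 in the cluster and the enzyme known for dihydrotestosterone and androstanediol, had the largest and the least even difference of the 11 tested probes. Its probe ILMN_2048414 read 8.31, 8.33 and 8.44 in miR-NC A, B and C, and 9.59, 9.22 and 8.58 in miR-331-3p A, B and C. The groups did not overlap, but miR-331-3p C lay only 0.14 above the highest array labelled miR-NC. The means were 8.36 ± 0.0669 and 9.13 ± 0.514 (SD, n = 3), a difference of 0.77 (95% interval 0.35 to 1.19, 1.70-fold, adjusted p = 0.0327, limma). The SD in the arrays labelled miR-331-3p was larger than that of 99.5% of tested probes. The call was lost on leaving out miR-NC A, B or C (adjusted p = 0.106, 0.123 and 0.09) or miR-331-3p A or B (0.0579 and 0.114), with differences from 0.54 to 0.81. Without miR-331-3p C the difference was 1.04 and the adjusted p 2.93e-05. The second probe of UGT2B15, ILMN_1739624, was under the minimum, with a mean of 6.83 and a difference of -0.02.

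The array miR-331-3p C was therefore low at UGT2B15 ILMN_2048414, by 0.55 from its group's mean, and at UGT2B17 ILMN_1752214, by 0.40. At the UGT2B17 probes that were called, its departure was -0.05 and -0.04, at UGT2B28 -0.02, and at the called UGT2B7 probes ILMN_1755897 and ILMN_1679194 -0.11 and -0.03. The array was also low at some probes outside the family and high at others. It read 7.17 against 8.27 and 8.11 in the other arrays of its group at KRT18 ILMN_1803408, and 8.98 against 9.50 and 9.61 at NFE2L2. At KRT8 it read 11.04 against 10.44 and 10.71, and at AKR1C2 8.55 against 8.28 and 8.22. These were picked after their values were seen. Over the 6 arrays, deviations from the group means at UGT2B15 ILMN_2048414 and UGT2B17 ILMN_1752214 had a Pearson correlation of 0.79, which rests largely on that array. The SD of UGT2B17 ILMN_1752214 in the arrays labelled miR-331-3p was larger than that of 98.5% of tested probes. What sets this array apart at these probes was not tested.

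UGT2B28, which is known to accept androgens such as androstanediol, had the narrowest miR-NC group of the 11 tested probes. Its probe ILMN_1781859 read 7.91, 7.93 and 7.93 in the arrays labelled miR-NC and 8.42, 8.49 and 8.43 in those labelled miR-331-3p. The groups lay 0.49 apart, the widest gap of the 11 probes, with means of 7.92 ± 0.0124 and 8.45 ± 0.0366 (SD, n = 3). The difference was 0.53 (95% interval 0.37 to 0.68, 1.44-fold, adjusted p = 0.001, limma), and it stayed between 0.51 and 0.54 and past the threshold on leaving out any 1 array.

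UGT2B7, an enzyme of broad range that conjugates opioids, oestrogens, bile acids and androsterone, was read by 3 probes. ILMN_1755897 gave 10.56, 10.49 and 10.42 in the arrays labelled miR-NC and 11.10, 11.20 and 10.99 in those labelled miR-331-3p, without overlap. Its difference was 0.60 (95% interval 0.43 to 0.78, 1.52-fold, adjusted p = 0.00119, limma). ILMN_1679194 gave 10.60, 10.61 and 10.92 against 11.18, 11.37 and 11.23, again without overlap although miR-NC C was high in its group. Its difference was 0.55 (95% interval 0.33 to 0.77, 1.46-fold, adjusted p = 0.00662, limma). The third probe, ILMN_1718833, was under the minimum, with a mean of 6.94 and a difference of -0.01. The deviations of both called UGT2B7 probes from their group means did not run together (Pearson correlation -0.18 over 6 arrays), whereas those of ILMN_1679194 ran with UGT2B17 ILMN_1808677 (0.94). That was the highest value among all pairs of tested member probes and was picked after the values were seen. The lowest was -0.97, between UGT2B10 and UGT2B28. Arrays and normalization are shared by all these points, and whether the UGT2B7 and UGT2B17 probes share a target RNA was not tested.

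UGT2B11, whose substrates are less well defined, was read by 2 probes. ILMN_2162819 gave 9.29, 9.36 and 9.37 in the arrays labelled miR-NC and 9.75, 9.79 and 9.80 in those labelled miR-331-3p. Both groups were narrow and lay 0.37 apart, with a difference of 0.44 (95% interval 0.28 to 0.59, 1.35-fold, adjusted p = 0.00337, limma). ILMN_1810233 gave 8.19, 8.33 and 8.47 against 8.73, 8.46 and 8.61, so that miR-331-3p B lay just under miR-NC C. Its difference of 0.27 (95% interval 0.06 to 0.48) had an adjusted p of 0.116 (limma).

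UGT2B10, known for conjugating nitrogen atoms of nicotine and of tricyclic drugs, was near the minimum. Its probe ILMN_1742444 read 7.17, 7.10 and 7.09 in the arrays labelled miR-NC and 7.34, 7.19 and 7.36 in those labelled miR-331-3p. The groups lay 0.03 apart, and the difference of 0.18 (95% interval 0.01 to 0.34) did not pass the test (adjusted p = 0.197, limma). UGT2B4, known for bile acids and catechol oestrogens, had both probes under the minimum, ILMN_1805003 with a mean of 6.84 and a difference of -0.07 and ILMN_2206500 with 6.82 and 0.08. The groups overlapped at both. Of the 5 member probes under the minimum, none separated the groups.

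UGDH oxidizes UDP-glucose to UDP-glucuronic acid, the donor for every one of these enzymes. Its probe ILMN_1729563 read 9.82, 9.77 and 9.73 in the arrays labelled miR-NC and 9.84, 9.93 and 9.97 in those labelled miR-331-3p. The groups were 0.03 apart, and the difference of 0.14 (95% interval -0.02 to 0.30, 1.10-fold) did not pass the test (adjusted p = 0.286, limma). It remained uncalled under each of the 14 alternatives, at 0.11 to 0.18.

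**Figure D2:**
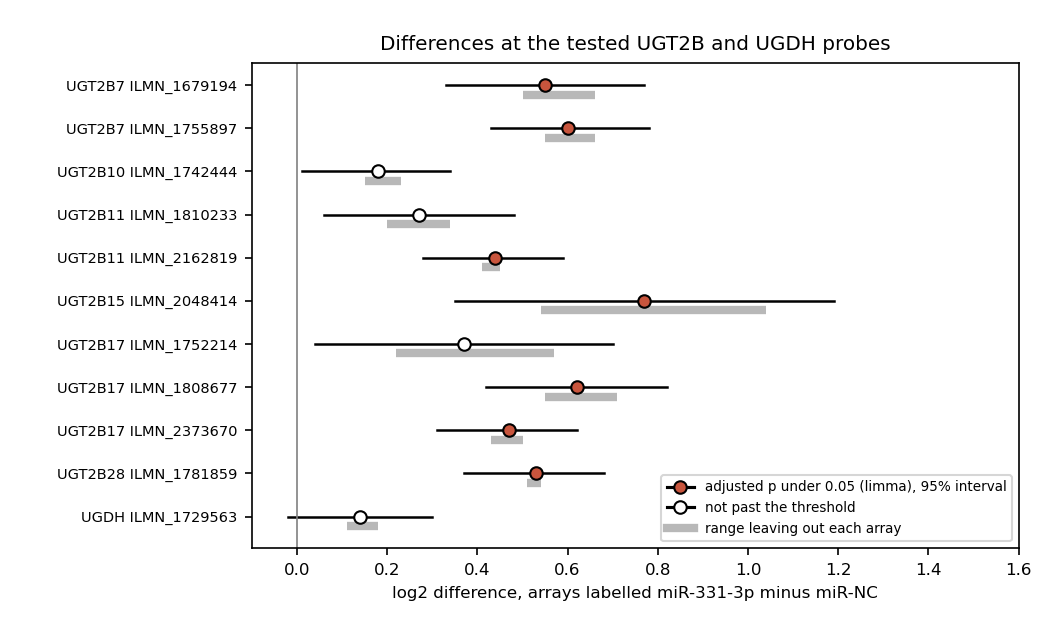
Log2 difference, arrays labelled miR-331-3p minus miR-NC (horizontal axis), for the 11 tested probes (vertical axis), with limma's 95% interval as a black line and the range on leaving out each of the 6 arrays as a grey band. Filled points passed an adjusted p of 0.05, and the grey band is widest at UGT2B15, from 0.54 to 1.04.

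With the methods' t-test, 8 of the 11 probes had an unadjusted p under 0.05, as against 10 with limma, and 3 passed after adjustment. All of these were higher under the miR-331-3p label, as were 9.22%, 10.8% and 0.686% of all probes tested by the same rules. These were UGT2B11 ILMN_2162819, UGT2B17 ILMN_2373670 and UGT2B28 ILMN_1781859, with adjusted p from 0.0183 to 0.048. Their SDs in the arrays labelled miR-331-3p were larger than those of only 5.36%, 9.78% and 10.3% of tested probes. The adjusted p of UGT2B15 was 0.305, and those of UGT2B17 ILMN_1808677, UGT2B7 ILMN_1679194 and UGT2B7 ILMN_1755897 were 0.0979, 0.146 and 0.0669. At least 1.5-fold was reached by 3 probes called by limma, UGT2B15 ILMN_2048414, UGT2B17 ILMN_1808677 and UGT2B7 ILMN_1755897. None of these 3 passed the methods' t-test after adjustment. The share of all tested probes that were called with at least 1.5-fold was not counted, so this number has no background beside it.

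In the order of genes along chromosome 4, UGT2B17, UGT2B15, UGT2B10, UGT2A3, UGT2B7, UGT2B11, UGT2B28 and UGT2B4 follow one another, with YTHDC1 and TMPRSS11E on one side and UGT2A1, SULT1B1 and SULT1E1 on the other. Called genes thus stood on both sides of UGT2B10 and UGT2A3. The 15 probes of 10 other genes in and around the cluster included 1 tested probe, ILMN_1707506 of YTHDC1, a reader of methylated RNA, with a difference of 0.01. The other 14 had means from 6.70 to 6.86. UGDH lies elsewhere on the same chromosome.

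The remaining UGT genes, which form the UGT1A, UGT2A, UGT3A and UGT8 groups, had 19 probes for 14 of 15 genes. All were under the minimum, with means from 6.70 to 6.91, so none was tested, and among the UGT genes with probes only UGT2B genes were over the minimum.

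Genes of UDP-sugar supply and use were represented by 23 tested probes, of which 0 were higher and 5 lower by limma, with a median difference of -0.05. At an unadjusted p under 0.05, 1 was higher and 7 lower. Over all probes tested 10.8% were higher by that rule, and the lower share was not counted. Unadjusted lower counts here and in the lists and markers below therefore have no background beside them. The hexokinases HK1 and HK2, which phosphorylate glucose, were lower by -0.28 (HK1, adjusted p = 0.0363) and by -0.37 and -0.31 (HK2, adjusted p = 0.00998 and 0.0339). The nucleotide-sugar transporters SLC35A1, which carries CMP-sialic acid, and SLC35B4, which carries UDP-xylose and UDP-N-acetylglucosamine, differed by -0.54 and -0.50. The calls of SLC35A1, SLC35B4 and the first HK2 probe held without any 1 array, whereas those of HK1 and of HK2 ILMN_2156172 held only without miR-331-3p C (adjusted p = 0.0279 and 0.0261) and reached 0.123 and 0.145 without others. The enzymes just ahead of UGDH did not pass the test, with differences of 0.04, -0.01 and 0.11 at the 3 probes of UGP2, which makes UDP-glucose, and -0.13 for PGM1. SLC35B1, a nucleotide transporter of the endoplasmic reticulum, differed by -0.24 without overlap of the groups (adjusted p = 0.0937), and NUDT14, which cleaves UDP-glucose, by -0.02. GUSB, the lysosomal enzyme that removes glucuronic acid, differed by -0.10 (adjusted p = 0.483).

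Transporters that move glucuronides out of or into cells had 5 tested probes, 3 higher and 2 lower. ABCC4, an exporter of conjugated steroids, was higher at ILMN_2194009 by 0.48 (adjusted p = 0.00316, limma) and at ILMN_1788457 by 0.35 (adjusted p = 0.029). SLCO4A1, an organic anion uptake transporter, was higher by 0.38 (adjusted p = 0.0285). ABCC5, an exporter known for cyclic nucleotides and organic anions, was lower by -0.52 at ILMN_1651964 (adjusted p = 0.00179) and by -0.42 at ILMN_1706531 (adjusted p = 0.0188). The first probe named of each ABC transporter kept its call without any 1 array. The call of ABCC4 ILMN_1788457 was lost without miR-NC A or C or miR-331-3p A or B (adjusted p from 0.0597 to 0.102), that of ABCC5 ILMN_1706531 without the same 4 arrays (0.0527 to 0.0918), and that of SLCO4A1 without miR-NC B or C or miR-331-3p A (0.0627 to 0.125).

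Other genes, listed for steroid formation, inactivation or conjugation, had 18 tested probes, 2 higher and 3 lower, with a median of -0.03. AKR1C2, which reduces dihydrotestosterone to androstanediol, the substrate of UGT2B15 and UGT2B17, was higher by 0.81 (95% interval 0.60 to 1.01, adjusted p = 0.000435, limma). Its arrays read 7.57, 7.59 and 7.47 with the miR-NC label and 8.28, 8.22 and 8.55 with the miR-331-3p label. AKR1C2 is on the study's own list of down regulated genes from these samples too, and its near-identical relatives may share its probe. AKR1C3, which forms testosterone from androstenedione, was higher by 0.29 (adjusted p = 0.0386), a call that held only without miR-331-3p B (adjusted p = 0.0451) and reached 0.14 without miR-NC B. RDH11, a retinol dehydrogenase, was lower by -0.53 at ILMN_1768719 (adjusted p = 0.00223) and by -0.40 at ILMN_2128741 (adjusted p = 0.0485, lost without miR-NC A or C or miR-331-3p A or C, at 0.069 to 0.17). PAPSS1, which makes the sulfate donor for the competing conjugation, was lower by -0.39 at ILMN_1781819 (adjusted p = 0.0209, but 0.0825 without miR-NC B and 0.0589 without miR-331-3p B) and differed by -0.03 at its other tested probe. Of the uncalled members, HSD17B4, SULT1A1 ILMN_2404795 and HSD17B10 ILMN_2355971 differed by 0.13, -0.02 and -0.07. The other tested SULT1A1 probe, ILMN_1657302, differed by -0.27 without overlap of the groups (adjusted p = 0.127, limma). HSD17B6 differed by -0.30, also without overlap (adjusted p = 0.0524, limma). At an unadjusted p under 0.05 with limma, 2 of the 18 probes were higher and 5 lower.

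Of 20 known regulators of UGT2B transcription, 7 had a tested probe, and none of their 8 probes was called by limma or the methods' t-test or had an unadjusted p under 0.05 with either. FOXA1, the forkhead pioneer factor of luminal prostate cells, differed by -0.01 (95% interval -0.21 to 0.20). AHR, the receptor for aromatic hydrocarbons, differed by 0.10 (-0.07 to 0.27) and RXRA, the partner of many nuclear receptors, by -0.03 (-0.25 to 0.20). NFE2L2 differed by 0.03 and its inhibitor KEAP1 by 0.16 and 0.08. The androgen receptor was not analysed here.

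**Figure D3:**
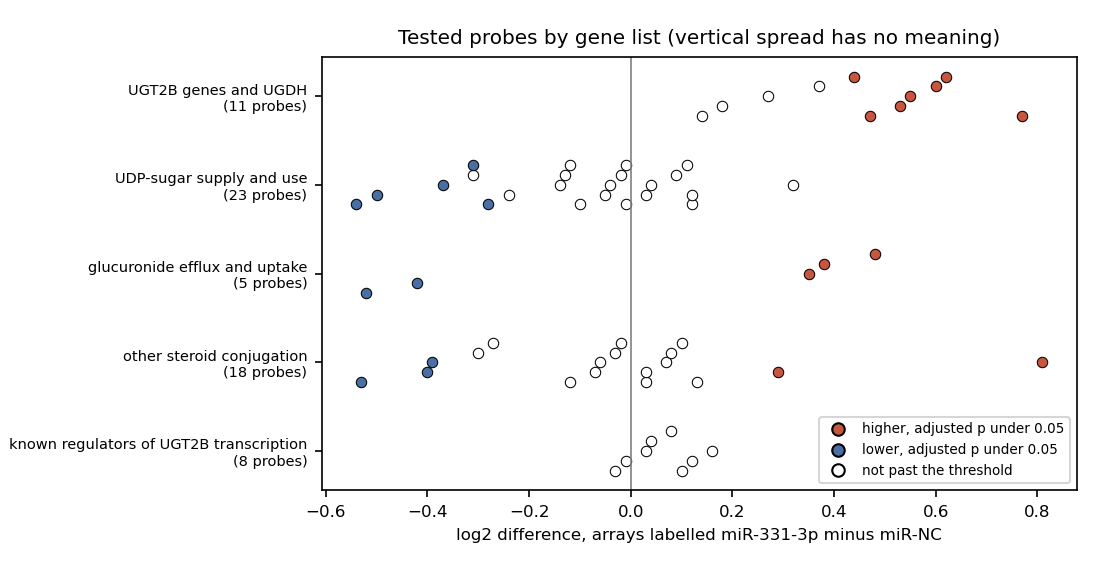
Log2 difference, arrays labelled miR-331-3p minus miR-NC (horizontal axis), of each tested probe of the UGT2B genes and UGDH and of 4 related lists (vertical axis, with the number of probes). Filled points passed an adjusted p of 0.05, red for higher and blue for lower, and the 11 UGT2B and UGDH points all lie to the right of 0 while the 8 regulator probes are open.

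Markers of LNCaP and luminal prostate cells were over the minimum at 12 of 13 probes, for 8 of the 10 genes listed, and 2 of the 12 were called higher and 0 lower, with a median difference of 0.03 (4 higher and 1 lower at an unadjusted p under 0.05). KLK2 and TMPRSS2, both androgen-responsive proteases, were higher by 0.33 (adjusted p = 0.0149, limma) and 0.53 (adjusted p = 0.00228), while KLK3 differed by -0.23 (adjusted p = 0.162). The other 9 probes were not called and went both ways, with differences of 0.34 at KRT8, 0.25 and 0.23 at FOLH1, 0.04, -0.23 and -0.26 at KRT18, 0.01 at HOXB13 and 0.00 and 0.02 at STEAP2. With the methods' t-test after adjustment 1 of the 12, KLK2, was called. The KLK2 call was lost without miR-NC A or B (adjusted p = 0.0575 and 0.0674). Markers of basal epithelium, blood and intestine had no probe over the minimum. Of the hepatocyte markers, a cell type rich in UGT2B enzymes, 4 of 9 probes were tested and none was called by limma (0 at an unadjusted p under 0.05), and of the stroma markers 2 of 8 were tested with none called (1 at an unadjusted p under 0.05). After adjustment the methods' t-test called none of either list.

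For each tested member probe, the probes of other genes with the most similar values over the 6 arrays were found by Pearson correlation, as a description over points that share the array set. UGT2B28 was most like VPS25, a subunit of an endosomal sorting complex (1.0 after rounding), followed by USP46, a deubiquitinase (0.999), and RRBP1 (0.998). UGT2B17 ILMN_1808677 was most like TFPI, an inhibitor of coagulation (0.995), and UGT2B11 ILMN_2162819 most like CCDC127 and SDC4, a cell-surface proteoglycan (0.998 for each). UGT2B15, with its low array, was most like PTPN2, a tyrosine phosphatase (0.989), DENND11 (0.988) and STX2, a syntaxin (0.987). UGT2B7 ILMN_1679194 was most like PCDHB5 (0.998) and ANKRD49 and TRPM8 (0.993 for each), UGT2B7 ILMN_1755897 most like TIGD2 and BICD2 (0.996 for each), and UGDH most like MB, the myoglobin gene (0.997). Probes of other UGT2B genes were eligible in this search but ranked below the probes named. For UGT2B7 ILMN_1679194, the correlation with UGT2B17 ILMN_1808677 was 0.99. The 6 points fall into 2 groups, and the correlation includes the difference between them.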

How the data were processed

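The authors deposited log2 values for 6 arrays. Per the methods, lumi was used for background correction and variance stabilization of the raw signals, and Partek Genomics Suite for quantile normalization. A table of raw signals holds 12 columns tied to no sample, which were not used. Gene names came from the annotation of the platform, brought to current symbols by Entrez identifier for 27540 of 27577 probes with 1 symbol. Probes with a mean signal of 7 or more were tested two-sided with limma 3.58.1 (lmFit, eBayes) in R 4.3.3, with Benjamini-Hochberg adjustment over 16752 probes. The methods' t-test, other minimums, array weights, an intensity trend, cyclic loess, median centring, a replicate block and leaving out each array were alternatives. Every member probe was named. From the lists, genes with a called probe and up to 3 more by mean signal were named. UGP2, GUSB, HSD17B6, NFE2L2, KEAP1 and markers other than those called were named in addition, with their values known. Members and lists were chosen with earlier results of these data known. The fitting code was checked on data with known changes. Precision is limited by the number of arrays. Python 3.11.15, pandas 2.3.3, Biopython 1.88 and matplotlib 3.10.9 were used.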

Additional observations from a re-analysis of the deposited data

How the results depend on the processing

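The 11 tested member probes had 153 values under 14 alternatives, of which 141 kept their direction and side of the threshold, 10 lost the call, 2 gained it and 0 reversed. UGT2B15 lost its call in 7 and UGT2B17 ILMN_1752214 gained one in 2, without miR-331-3p C and when arrays were weighted (0.49, adjusted p = 0.0204). UGT2B15 without a minimum signal had an adjusted p of 0.124. With the methods' t-test, 3 member probes were called in place of 7, 115 probes of all were higher and 49 lower in place of 720 and 613, and of the list probes 0 were higher and 1 lower in place of 5 and 10 (5 and 12 at an unadjusted p under 0.05), the one lower being SLC35B4. HK1 was not called with the intensity trend (adjusted p = 0.062), SLCO4A1 without a minimum (0.051) and RDH11 ILMN_2128741 without a minimum, with weights, with loess or with the block (0.0541 to 0.114). On leaving out 1 array, the member calls ran from 6 to 8, all probes called higher from 363 to 765 and lower from 263 to 697, list probes higher from 2 to 5 and lower from 6 to 11. Member probes called lower stayed at 0 throughout. Deviations from the group means in arrays of the same letter had correlations of -0.04, 0.02 and 0.22 for A, B and C. Those of different letters were not set beside them, so whether a letter marks a shared batch was not tested. The letters were not taken as pairs. With the replicate block, 7 member probes were called, 742 of all probes were higher and 670 lower, and list probes were 5 and 8, HK1 being among those lost (adjusted p = 0.0533). Low signals are compressed by the variance stabilization, which limits what can be read at UGT2B10 and under the minimum.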
